A study of Mus musculus with 6 samples.

Results

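Collagen modifying enzymes and chaperones are the proteins that turn newly made procollagen chains into a secreted, processed triple helix. The 10 genes described here were taken as a named list of hydroxylases, a chaperone and a propeptidase, and each was matched by symbol to a single Ensembl gene ID among the 55335 genes of the deposited table. All 10 averaged at least 1 FPKM (sequenced fragments scaled by transcript length and by the size of the library) over the 6 libraries and so were among the 12860 genes tested. The icKO nerves (n = 3) were sciatic nerves of RhoAfl/fl ChATCreERT2+ mice, and the control nerves (n = 3) were those of RhoAfl/fl mice, all at postnatal day 14. Both groups thus carried the floxed allele of the small GTPase RhoA, and the icKO mice also an inducible Cre made in cells that express choline acetyltransferase, such as spinal motoneurons. The labels give neither the induction schedule, nor whether controls received the inducing drug, nor the sex of the mice. Nor do they state that each library is a different animal, so a p-value here measures the spread among these libraries, part of which may be technical.

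Procollagen chains are modified as they enter the endoplasmic reticulum. Prolyl 4-hydroxylase, made of alpha subunits (P4ha1, P4ha2) and the beta subunit P4hb, hydroxylates prolines so that the triple helix is stable at body temperature. Lysyl hydroxylases (Plod1, Plod2, Plod3) prepare lysines for crosslinks and for the attachment of sugars. P3h1 and Crtap form a complex that hydroxylates single prolines, Serpinh1 (also called HSP47) holds the folded helix on its way to the Golgi, and Bmp1 cuts off the C-terminal propeptide so that fibrils can form. In a peripheral nerve, fibroblasts of the endoneurium and epineurium make much of the fibrillar collagen, and Schwann cells make collagen of their own basal lamina. RNA of all these cells is mixed in a nerve lysate, so fewer cells of a type and less RNA per cell cannot be told apart.

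The depth, estimated from the smallest steps of the FPKM values, was 17800000 to 19500000 fragments in icKO libraries and 17200000 to 20600000 in control libraries. All 10 Schwann cell markers averaged at least 1 FPKM and were tested, as the label of a nerve asks. Rhoa was at 34.4 ± 1.75 FPKM in icKO and 37.9 ± 1.24 FPKM in control nerves (SD, n = 3 each), a difference that did not pass (limma, Benjamini-Hochberg adjusted p = 0.195). Chat, the gene behind the Cre driver, was listed at 0 in all icKO libraries and at 0 to 0.012 FPKM in control libraries. With Chat RNA near 0 in the nerve, neither value shows whether Rhoa was deleted in the cells that make the Cre. Of the 6 libraries, control replicate 2 alone held Xist, at 46.1 FPKM, where the highest other value was 0.028 FPKM, and the Y-linked Ddx3y was at 0 there but at 14.2 to 16.1 FPKM in icKO libraries and at 12.5 and 15.6 FPKM in the other control libraries. That library therefore came from a female and the others from males, so the control libraries do not all share an animal. The summed skeletal muscle markers were 1652 FPKM in icKO replicate 3 and 1463 FPKM in control replicate 1, against 26.5 and 42.5 FPKM in the other icKO libraries and 289 and 394 FPKM in the other control libraries. Control replicate 1 was also lowest in summed fibroblast markers, at 1005 FPKM, where icKO libraries had 1515 to 1598 FPKM and the other control libraries 1765 and 1585 FPKM. A large part of the sum was Apod, at 825 to 883 FPKM in icKO and 325 to 474 FPKM in control libraries. The sum alone therefore does not show where control replicate 1 stood in the other fibroblast markers. Among the next most abundant, it was below all icKO libraries in Gsn (305 against 361 to 418 FPKM) and Dcn (174 against 190 to 215 FPKM). In Lum it was above them (105 against 22.8 to 36.2 FPKM). In each of these genes it was the lowest control library. Calls that change without these libraries are given with and without them.

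The 10 genes differed in size and direction between genotypes. P4ha1, Plod3 and P3h1 fell in icKO nerves, Bmp1 rose, and P4ha2, P4hb, Plod1, Plod2, Crtap and Serpinh1 did not pass (limma on log2(FPKM + 1), called at a Benjamini-Hochberg adjusted p under 0.05 over all tested genes). Of all tested genes 42.9% passed, 22.1% lower and 20.8% higher in icKO, so 3 falls and 1 rise among 10 members lie near the background. The median log2 difference of the members was -0.33, where that of all tested genes was -0.01. In 6 members no icKO library lay within the control range, 5 of them lower and 1 higher in icKO, and the same held for 57.2% of all tested genes, 28.9% lower and 28.4% higher. P4ha1 had the largest difference of the 10, and 1.4% of tested genes, itself among them, had a difference at or below its own.

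**Figure D1:**
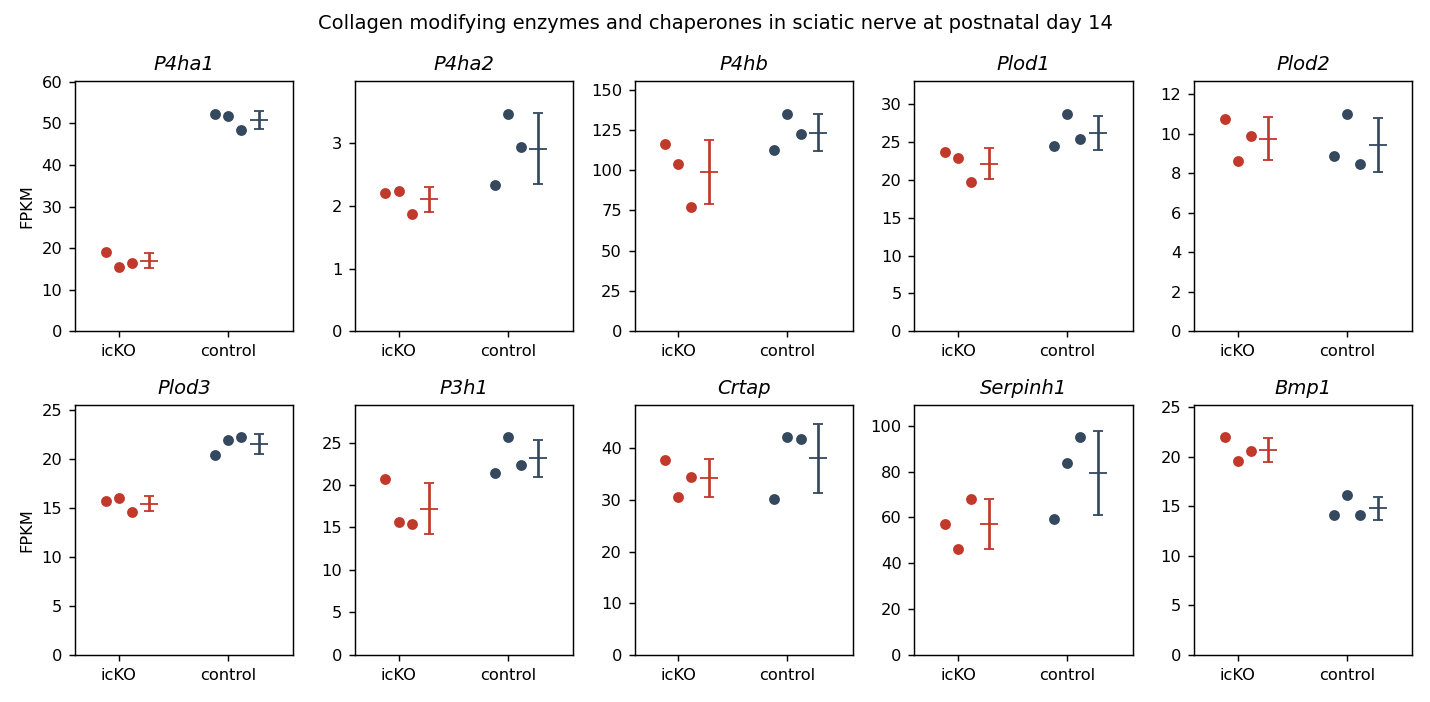
FPKM of each of the 10 genes in the 3 icKO and 3 control libraries (points, replicates 1 to 3 from left to right), with the mean and SD of each group beside them and each axis from 0. P4ha1 sits at 15.4 to 18.95 FPKM in icKO and 48.4 to 52.4 FPKM in control libraries, and Bmp1 is the only 1 of the 10 with all icKO libraries above all control libraries.

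P4ha1 (ENSMUSG00000019916), an alpha subunit that carries the catalytic site of prolyl 4-hydroxylase, was at 18.95, 15.4 and 16.5 FPKM in icKO nerves, against 52.4, 51.7 and 48.4 FPKM in control nerves. The groups did not overlap, and the distance between them was many times the spread within either. It averaged 16.9 ± 1.82 FPKM in icKO and 50.8 ± 2.13 FPKM in control nerves (SD, n = 3 each), so that the icKO level was 33.3% of the control level. The log2 difference was -1.53 (SE 0.10, limma, Benjamini-Hochberg adjusted p = 0.000364). It passed under all 15 alternatives run, with differences of -1.61 to -1.47.

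P4ha2 (ENSMUSG00000018906), the other alpha subunit measured above the filter, was at 2.21, 2.23 and 1.87 FPKM in icKO and 2.33, 3.47 and 2.94 FPKM in control nerves. All icKO libraries lay below all control libraries, but control replicate 1 was close to them. The log2 difference of -0.33 (95% interval -0.63 to -0.02) did not pass (limma, Benjamini-Hochberg adjusted p = 0.0805), and it did without control replicate 1 (adjusted p = 0.0317). P4ha2 rests on few fragments, an estimated 83 to 162 per library if all came from its longest coding transcript, the fewest of the 10 genes. P4ha3 (ENSMUSG00000051048), a further alpha subunit gene that is no member, averaged under the filter and was at 0.18, 0.01 and 0.18 FPKM in icKO and 1.46, 1.96 and 1.69 FPKM in control nerves.

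P4hb (ENSMUSG00000025130), the beta subunit, is also protein disulfide isomerase, an abundant folding enzyme of the endoplasmic reticulum that exceeds the alpha subunits in most cells. It was at 116, 104 and 77.0 FPKM in icKO and 113, 135 and 122 FPKM in control nerves, and the groups overlapped. The log2 difference of -0.33 (95% interval -0.72 to 0.06) did not pass (limma, Benjamini-Hochberg adjusted p = 0.142). With each library's level of skeletal muscle transcripts as a covariate it did, at -0.49 (adjusted p = 0.00988).

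The alpha subunit transcripts were thus lower in icKO nerves as a sum and also differed in their makeup. P4ha1, P4ha2 and P4ha3 together came to 19.2 ± 1.92 FPKM in icKO and 55.4 ± 2.15 FPKM in control nerves (SD, n = 3 each). P4ha2 made up 11.03 ± 1.42% of that sum in icKO and 5.26 ± 0.998% in control nerves, and P4ha1 88.3 ± 0.93% and 91.7 ± 1.42%. All 3 quantities separated the genotypes without overlap. The ratio of P4ha1 to P4ha2 was 8.59, 6.89 and 8.81 in icKO and 22.5, 14.9 and 16.4 in control libraries, a difference of -1.13 in the mean log2 ratio. An exact two-sided permutation test over the 6 libraries gave p = 0.1, the smallest that 3 against 3 allows (0.15 adjusted by Benjamini-Hochberg over the 3 paralog ratios tested). The ratio of P4hb to the alpha subunits was 5.45, 5.87 and 4.15 in icKO and 2.004, 2.36 and 2.31 in control libraries, again without overlap.

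The promoters of these 3 members are shown because P4ha1 fell while P4ha2 and P4hb did not pass, although all encode subunits of prolyl 4-hydroxylase. Each window runs from 250 bases before to 50 bases after a gene start in RefSeq (GRCm38.p6) and is written 5′ to 3′ on the strand of the gene. Capitals mark ACGTG and GCGTG, forms of the core bound by hypoxia-inducible factors, on either strand, so that a reversed match reads CACGT or CACGC. The windows are chr10:59323046-59323345 on the plus strand for P4ha1, chr11:54100674-54100973 on the plus strand for P4ha2 and chr11:120573204-120573503 on the minus strand for P4hb.
P4ha1: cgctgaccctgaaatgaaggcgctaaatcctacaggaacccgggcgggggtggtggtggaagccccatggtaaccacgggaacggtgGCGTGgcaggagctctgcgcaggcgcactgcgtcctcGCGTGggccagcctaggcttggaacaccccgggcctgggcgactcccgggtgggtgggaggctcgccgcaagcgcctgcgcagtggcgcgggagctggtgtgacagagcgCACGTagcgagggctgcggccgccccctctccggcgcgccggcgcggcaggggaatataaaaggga
P4ha2: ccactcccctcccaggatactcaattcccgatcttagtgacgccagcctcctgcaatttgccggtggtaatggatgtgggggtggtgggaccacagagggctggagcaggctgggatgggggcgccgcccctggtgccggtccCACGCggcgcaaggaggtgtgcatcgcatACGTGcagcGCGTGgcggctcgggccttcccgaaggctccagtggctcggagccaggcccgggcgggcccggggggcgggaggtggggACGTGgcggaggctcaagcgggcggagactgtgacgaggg
P4hb: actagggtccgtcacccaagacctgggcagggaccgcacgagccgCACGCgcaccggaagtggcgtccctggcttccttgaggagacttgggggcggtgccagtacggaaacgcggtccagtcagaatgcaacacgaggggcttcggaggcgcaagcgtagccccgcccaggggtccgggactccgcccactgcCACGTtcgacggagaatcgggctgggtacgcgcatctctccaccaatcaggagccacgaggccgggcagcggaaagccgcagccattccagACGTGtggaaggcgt
The P4ha1 window holds 3 matches, that of P4ha2 holds 4 and that of P4hb holds 3. Whether the matches bear on the changes of these genes was not tested. RefSeq windows were matched for 8 of the 10 members, all but Plod2 and Bmp1, and each of the 8 holds at least 1 match. Of the 11745 windows of tested genes 62.2% hold a match, and of all 32851 windows 43.8%.

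Of the lysyl hydroxylases, Plod3 fell, and the other two did not pass. Plod3 (ENSMUSG00000004846), which besides hydroxylating lysine can also add sugars to hydroxylysine, was at 15.7, 16.0 and 14.6 FPKM in icKO and 20.3, 21.9 and 22.2 FPKM in control nerves. All icKO libraries lay below all control libraries, with little spread in either group. It averaged 15.4 ± 0.73 FPKM in icKO and 21.5 ± 1.0004 FPKM in control nerves (SD, n = 3 each), and the difference was -0.45 on the log2 scale with an SE of 0.08 (adjusted p = 0.00486, Benjamini-Hochberg, limma). Plod3 passed under all 15 alternatives, with differences of -0.49 to -0.42.

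Plod1 (ENSMUSG00000019055), which hydroxylates lysines of the helix, was at 23.7, 22.9 and 19.8 FPKM in icKO and 24.5, 28.7 and 25.4 FPKM in control nerves. The groups did not overlap, yet the highest icKO and the lowest control library were close, and the log2 difference of -0.24 (95% interval -0.48 to 0.01) did not pass (limma, Benjamini-Hochberg adjusted p = 0.106). With the skeletal muscle covariate it passed at -0.31 (adjusted p = 0.0361). Plod2 (ENSMUSG00000032374), which hydroxylates lysines of the telopeptides and so sets the type of crosslink, was at 10.8, 8.61 and 9.91 FPKM in icKO and 8.86, 11.03 and 8.48 FPKM in control nerves. These groups overlapped throughout, and the difference of 0.04 had a 95% interval of -0.25 to 0.34 on the log2 scale (adjusted p = 0.794). These libraries do not tell apart changes of Plod2 within that interval.

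Within the family, the summed Plod transcripts were 50.1, 47.5 and 44.3 FPKM in icKO and 53.7, 61.7 and 56.1 FPKM in control libraries. Plod3 made up 32.7 ± 1.20% of the sum in icKO and 37.7 ± 2.01% in control nerves, and Plod2 20.7 ± 2.25% and 16.5 ± 1.38% (SD, n = 3 each). For both shares the groups did not overlap. The ratio of Plod3 to Plod1 was 0.66, 0.70 and 0.74 in icKO and 0.83, 0.76 and 0.87 in control libraries, a difference of -0.23 in the mean log2 ratio with the smallest exact permutation p possible (0.1, two-sided, 0.15 adjusted over the 3 ratios). The ratio of Plod2 to Plod1 was 0.46, 0.38 and 0.50 in icKO and 0.36, 0.38 and 0.33 in control libraries, with overlap (exact permutation p = 0.2, two-sided, also 0.2 adjusted).

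The prolyl 3-hydroxylase complex acts on single prolines of type I and other collagens. P3h1 (ENSMUSG00000028641), its enzyme, was at 20.7, 15.6 and 15.4 FPKM in icKO and 21.4, 25.6 and 22.4 FPKM in control nerves. The groups did not overlap, but icKO replicate 1 nearly reached control replicate 1. P3h1 averaged 17.2 ± 3.01 FPKM in icKO and 23.1 ± 2.19 FPKM in control nerves (SD, n = 3 each), and its log2 difference of -0.41 (SE 0.13) passed narrowly (limma, Benjamini-Hochberg adjusted p = 0.0453). It passed under 5 of 15 alternatives (adjusted p = 0.0142 to 0.139 over all 15) and, where single libraries were omitted, only without icKO replicate 1. Without the 2 libraries richest in muscle transcripts the adjusted p was 0.115.

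Crtap (ENSMUSG00000032431), the non-enzymatic partner of P3h1, was at 37.8, 30.5 and 34.5 FPKM in icKO and 30.2, 42.1 and 41.8 FPKM in control nerves. The lowest of the 6 values was that of control replicate 1, and the groups overlapped. The log2 difference of -0.14 had a 95% interval of -0.50 to 0.22 (limma, Benjamini-Hochberg adjusted p = 0.494). The ratio of Crtap to P3h1 was 2.01 ± 0.21 in icKO and 1.64 ± 0.23 in control nerves (SD, n = 3 each), with overlap.

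Serpinh1 (ENSMUSG00000070436), the collagen-specific chaperone, was at 57.0, 46.4 and 68.2 FPKM in icKO and 59.1, 83.7 and 94.9 FPKM in control nerves. Control replicate 1 lay within the icKO range and the other control libraries above it. The log2 difference of -0.45 was as large as that of Plod3, but with an SE of 0.21 it did not pass (limma, Benjamini-Hochberg adjusted p = 0.123). It passed without control replicate 1, at -0.65 (adjusted p = 0.0359), and without that library and icKO replicate 3, at -0.78 (adjusted p = 0.0154). Control replicate 1 is the control library lowest in summed fibroblast markers and richest in muscle markers, and the part of this in the result was not tested.

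Bmp1 (ENSMUSG00000022098), the procollagen C-proteinase, was at 22.0, 19.6 and 20.6 FPKM in icKO, against 14.2, 16.1 and 14.1 FPKM in control nerves. All icKO libraries lay above all control libraries. It averaged 20.7 ± 1.20 FPKM in icKO and 14.8 ± 1.14 FPKM in control nerves (SD, n = 3 each), 1.40 times the control level, and the difference was 0.46 on the log2 scale with an SE of 0.09 (adjusted p = 0.00706, Benjamini-Hochberg, limma). Bmp1 passed under all 15 alternatives, with differences of 0.42 to 0.52.

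**Figure D2:**
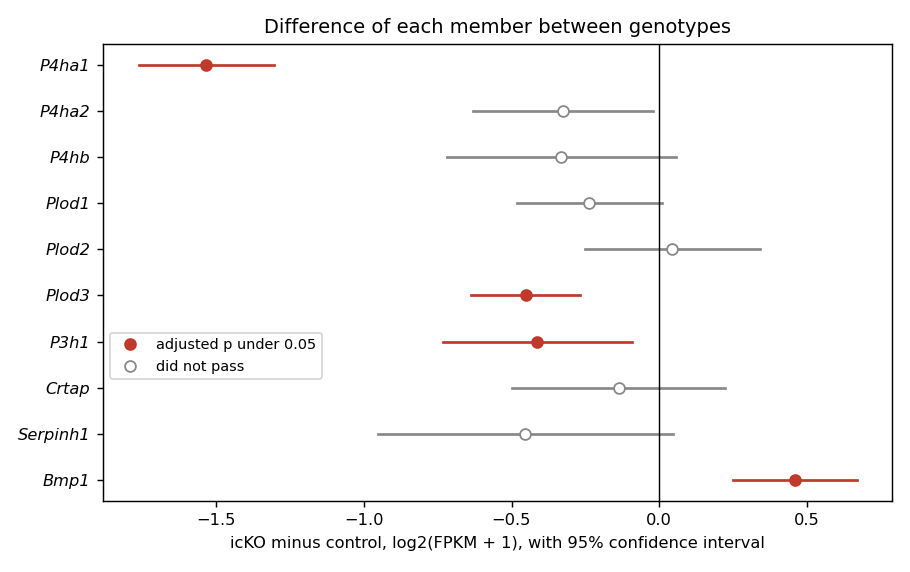
Log2(FPKM + 1) difference of icKO minus control for each gene (point) with its 95% confidence interval from limma (line), filled where the adjusted p was under 0.05. P4ha1 lies at -1.53, Plod3, Serpinh1 and P3h1 near -0.4 to -0.5 with intervals of unequal width, and Bmp1 at 0.46.

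The substrates of Bmp1 outside the fibrillar collagens were followed as a list, since the proteinase also matures crosslinking enzymes and proteoglycans. Of 8 tested genes 3 rose, 2 fell and 3 stayed uncalled, with a median log2 difference of 0.10, where 20.8% of all tested genes rose and 22.1% fell. Lox, whose precursor Bmp1 cleaves to release active lysyl oxidase, rose to 508 ± 34.5 FPKM in icKO, against 162 ± 38.4 FPKM in control nerves. Col7a1, the chain of anchoring fibrils, rose to 13.7 ± 2.28 FPKM in icKO nerves, against 2.64 ± 0.57 FPKM in control nerves (SD, n = 3 each), a log2 difference of 2.01 (limma, Benjamini-Hochberg adjusted p = 0.000598). Chrd, the BMP antagonist chordin, rose at a low level, to 2.31 ± 0.15 FPKM in icKO, against 1.02 ± 0.21 FPKM in control nerves. The proteoglycan genes Bgn and Ogn fell, Bgn to 22.6 ± 2.60 FPKM in icKO, against 53.0 ± 15.7 FPKM in control nerves, and Ogn to 372 ± 84.4 FPKM, against 677 ± 45.5 FPKM. Dcn was at 199 ± 14.2 FPKM in icKO and 273 ± 85.7 FPKM in control nerves and did not pass (adjusted p = 0.222), though it did without control replicate 1 (adjusted p = 0.00626).

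Of 6 other tested genes that process the propeptides 2 rose, 1 fell and 3 stayed uncalled, which lies near the 20.8% that rose and the 22.1% that fell of all tested genes, and the median was -0.04. Pcolce, which enhances cleavage of the C-propeptide by Bmp1, fell to 23.6 ± 2.96 FPKM in icKO, against 47.4 ± 9.94 FPKM in control nerves, a log2 difference of -0.96 (limma, Benjamini-Hochberg adjusted p = 0.00551). Tll2, a proteinase related to Bmp1, rose to 1.79 ± 0.70 FPKM in icKO, against 0.51 ± 0.15 FPKM in control nerves. It passed the filter only through its icKO level, with every control library under 1 FPKM, so its call carries little weight, and it was tested in 12 of the 15 alternatives. Adamts14, an N-proteinase, was at 6.71 ± 1.10 FPKM in icKO and 4.70 ± 0.70 FPKM in control nerves (SD, n = 3 each), a rise (adjusted p = 0.0416) that passed in 7 of 15 alternatives and when 2 of the 6 libraries were omitted singly (adjusted p = 0.0305 to 0.112 over the 15), those without icKO replicate 3 or control replicate 2. Adamts2, the main N-proteinase of type I procollagen, did not pass (adjusted p = 0.284), but fell without control replicate 1 (adjusted p = 0.0116).

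The chains on which these enzymes act were lower in part. Of 11 tested fibril-forming chains 5 fell, 1 rose (Col11a2) and 5 stayed uncalled, with a median log2 difference of -0.41. Among all tested genes 22.1% fell and 20.8% rose. Col1a1 was at 266 ± 15.3 FPKM in icKO and 493 ± 142 FPKM in control nerves, and Col1a2 at 241 ± 7.89 and 363 ± 84.1 FPKM (SD, n = 3 each), both falls (limma, Benjamini-Hochberg adjusted p = 0.0163 and 0.0371). Col1a1 did not pass without control replicate 3 (adjusted p = 0.0520), and Col1a2, where single libraries were omitted, passed only without control replicate 1. Col3a1 was at 261 ± 22.5 FPKM in icKO and 433 ± 156 FPKM in control nerves and did not pass (adjusted p = 0.0971), though it did without control replicate 1 (adjusted p = 0.00498). Col2a1, a cartilage chain, was at 0.26 ± 0.12 FPKM in icKO and 2.35 ± 1.13 FPKM in control nerves. It passed the filter only through its control level, so its call carries little weight, and its difference was -2.71 to -1.28 over the 13 of 15 alternatives in which it was tested. The number of these chains that fell was 2 to 5 when single libraries were left out.

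Of 10 tested basement membrane and microfibrillar chains 6 fell and 4 stayed uncalled, and the median was -0.85, where 22.1% of all tested genes fell. The main basement membrane chains were not among the falls, with Col4a1 at 258 ± 10.1 FPKM in icKO and 258 ± 17.1 FPKM in control nerves and Col4a2 at 254 ± 11.03 and 222 ± 19.1 FPKM (SD, n = 3 each). Their log2 differences were 0.00 and 0.20 (limma, Benjamini-Hochberg adjusted p = 0.99997 and 0.139). Col4a5, a less abundant type IV chain, did fall, to 3.18 ± 0.35 FPKM in icKO, against 5.97 ± 1.43 FPKM in control nerves. Its log2 difference was -0.72 (limma, Benjamini-Hochberg adjusted p = 0.0137). The falls also included Col15a1, at 65.8 ± 8.22 FPKM in icKO and 139 ± 36.3 FPKM in control nerves, and 4 type VI chains, with Col6a2 at 19.9 ± 4.55 FPKM in icKO and 55.9 ± 18.1 FPKM in control nerves. The largest of the list was that of Col6a5, to 1.64 ± 0.59 FPKM in icKO, against 7.56 ± 2.35 FPKM in control nerves.

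Set against the summed Col1a1, Col1a2 and Col3a1 transcripts, the members fell into several patterns. The sum was 790, 735 and 781 FPKM in icKO and 892, 1648 and 1326 FPKM in control libraries, a lower level in icKO without overlap, but with control replicate 1 close to the icKO libraries. P4ha1 came to 24.0, 20.9 and 21.1 FPKM per 1000 FPKM of these chains in icKO and 58.7, 31.4 and 36.5 in control libraries, so it was lower also per unit of chain transcript. Bmp1 was higher per unit of chain, at 27.8, 26.7 and 26.4 in icKO and 15.9, 9.79 and 10.6 in control libraries. Plod2 and Crtap were also higher on this measure without overlap, Plod2 at 12.7 ± 0.97 in icKO and 7.68 ± 1.96 in control nerves and Crtap at 44.5 ± 3.19 and 30.3 ± 4.30. For Serpinh1, P3h1, Plod1, Plod3, P4ha2 and P4hb the groups overlapped, with Serpinh1 at 74.2 ± 12.3 in icKO and 62.9 ± 10.8 in control nerves (SD, n = 3 each). These quantities are descriptions and were not tested, and they carry the spread of the chains in the control group.

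**Figure D3:**
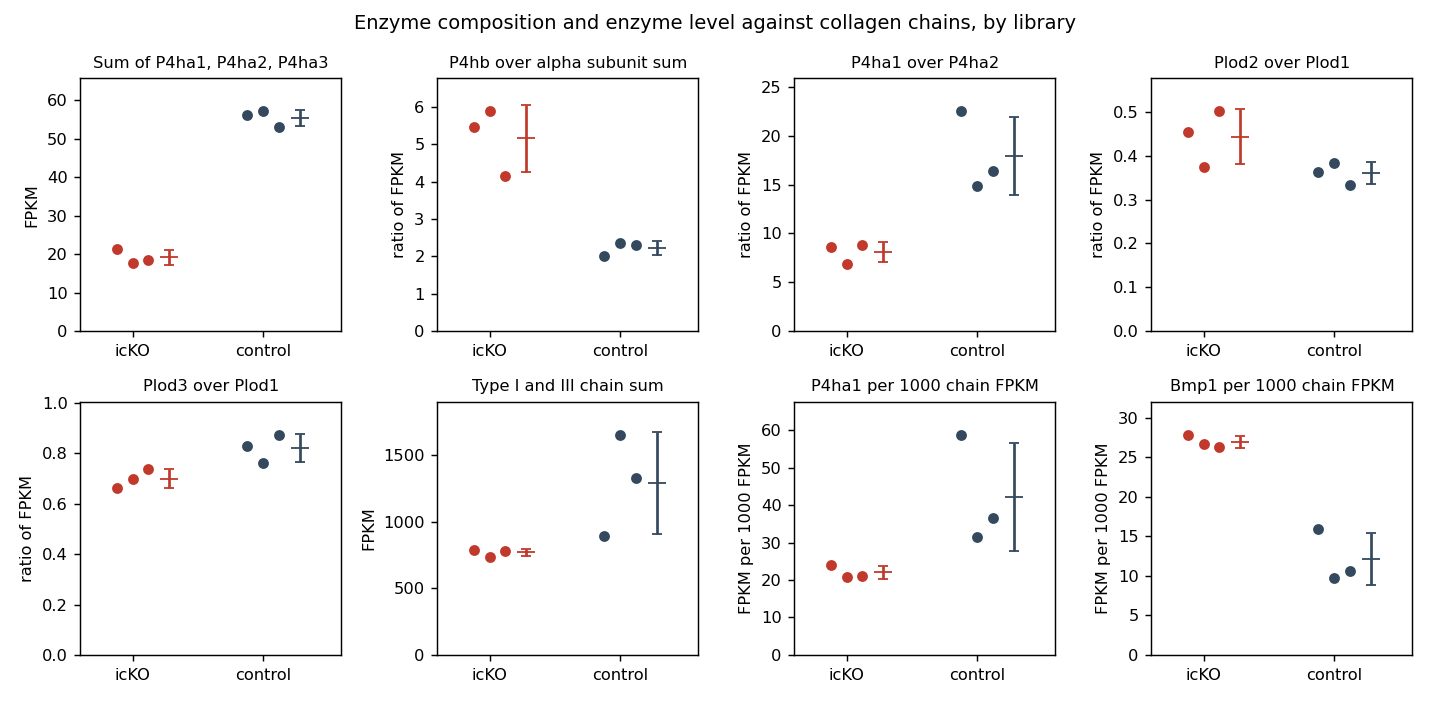
Subunit sums, ratios between members and levels per 1000 FPKM of Col1a1, Col1a2 and Col3a1 in each icKO and control library (points, replicates 1 to 3 from left to right), with the mean and SD of each group and each axis from 0. The ratio of P4hb to the alpha subunits is 4.15 to 5.87 in icKO and 2.004 to 2.36 in control libraries, and the control libraries spread widely in the chain sum, from 892 to 1648 FPKM.

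Further hydroxylases, glycosyltransferases and folding factors of collagen were examined beside the members. Of 13 tested 5 fell and 8 did not pass, with a median log2 difference of -0.20, where 22.1% of all tested genes fell. At an unadjusted p under 0.05 in limma 6 were lower and 0 higher. Of all 12860 tested genes 6664 were under 0.05 in either direction. P3h2, a prolyl 3-hydroxylase that acts on basement membrane collagen, fell to 2.66 ± 0.19 FPKM in icKO, against 8.82 ± 0.83 FPKM in control nerves. Its log2 difference of -1.42 (limma, Benjamini-Hochberg adjusted p = 0.000375) was near that of P4ha1. Colgalt2, a galactosyltransferase, fell to 1.96 ± 0.38 FPKM in icKO, against 4.57 ± 0.49 FPKM in control nerves, whereas the more abundant Colgalt1 was at 18.9 ± 3.16 and 16.2 ± 1.20 FPKM and did not pass (adjusted p = 0.239). Ppib, the isomerase that binds P3h1 and Crtap, was at 42.1 ± 2.11 FPKM in icKO and 48.5 ± 3.27 FPKM in control nerves (SD, n = 3 each) and did not pass either (adjusted p = 0.107). The collagen-binding glycoprotein gene Sparc was at 2126 ± 184 FPKM in icKO and 2212 ± 153 FPKM in control nerves (adjusted p = 0.687), and that of the prolyl isomerase Fkbp9 at 84.9 ± 4.98 and 94.2 ± 15.4 FPKM (adjusted p = 0.442). Fkbp14, of the same family, fell to 8.10 ± 1.61 FPKM in icKO, against 14.3 ± 1.46 FPKM in control nerves.

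Of 14 tested genes that serve export of procollagen from the endoplasmic reticulum 5 fell, 2 rose and 7 stayed uncalled, and the median was -0.19. The shares over all tested genes were 22.1% lower and 20.8% higher. Mia3, also called TANGO1, which loads procollagen into carriers, rose to 16.8 ± 2.48 FPKM in icKO, against 9.11 ± 0.62 FPKM in control nerves, a log2 difference of 0.81 (limma, Benjamini-Hochberg adjusted p = 0.00268). Tfg, a protein of the exit sites, fell to 25.9 ± 1.12 FPKM in icKO, against 42.1 ± 1.46 FPKM in control nerves (SD, n = 3 each). The retrieval receptor genes Kdelr3 and Kdelr2, whose products return resident proteins to the endoplasmic reticulum, fell to 35.8 ± 2.59 and 29.0 ± 4.46 FPKM in icKO, against 51.0 ± 4.11 and 43.6 ± 6.20 FPKM in control nerves. The difference of Kdelr2 did not pass without icKO replicate 2, control replicate 2 or control replicate 3 (adjusted p = 0.0501 to 0.0710). Sar1a, a GTPase of the carrier coat and the most abundant of the list, was at 55.0 ± 6.57 FPKM in icKO and 59.7 ± 3.64 FPKM in control nerves and did not pass (adjusted p = 0.403). The number that fell was 3 without icKO replicate 2, without control replicate 2 or without control replicate 3.

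General chaperones of the endoplasmic reticulum, which fold secreted proteins of every kind, were lower as a group. Of 14 tested 10 fell, and 4 did not pass, with a median log2 difference of -0.68, where 22.1% of all tested genes fell. At an unadjusted p under 0.05 in limma 11 were lower and 0 higher, where 6664 of all 12860 tested genes passed in either direction. Calr fell to 63.7 ± 10.8 FPKM in icKO, against 131 ± 12.7 FPKM in control nerves, and Hsp90b1 to 54.1 ± 2.97 FPKM, against 101 ± 8.92 FPKM (SD, n = 3 each). Pdia3 fell to 54.4 ± 2.18 FPKM in icKO, against 98.7 ± 13.5 FPKM in control nerves. The summed levels of the 14 genes were 378, 341 and 389 FPKM in icKO and 565, 679 and 658 FPKM in control libraries, without overlap. Between 8 and 10 fell under every alternative run, and Hspa5, which encodes the sensor chaperone BiP, did not pass without control replicate 2 or 3 (adjusted p = 0.0504 and 0.0535).

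P4hb belongs to the same family of disulfide isomerases as Pdia3, Pdia4 and Pdia6, which all fell, and its own difference of -0.33 was smaller than theirs, at -0.84, -0.99 and -1.03 on the log2 scale. Pdia5, also of this family, fell narrowly at -0.47, nearer to P4hb, and its groups overlapped (limma, Benjamini-Hochberg adjusted p = 0.0495). Whether P4hb differed from these genes was not tested. The RefSeq windows of members and general chaperones were searched for the endoplasmic reticulum stress element on both strands. The element is CCAAT and CCACG with any 9 bases between them. It was found in 7 of 12 general chaperone genes with a RefSeq window and in 0 of 8 members, against 0.145% of the windows of tested genes. A match was present in Calr, Canx, Creld2, Hsp90b1, Hspa5 and Pdia6, which fell, and in Dnajc3, which did not pass at a log2 difference of 0.16 (limma, Benjamini-Hochberg adjusted p = 0.285). No match was found in the windows of Pdia3 and Pdia5, which also fell. Pdia4 and Hyou1 fell too, but they do not both have a window, as only 12 of the 14 genes do. One match each is shown for Hspa5, Calr, Hsp90b1 and Pdia6, 5′ to 3′ on the strand of the match, with the fixed ends of the element in capitals (GRCm38.p6, chr2:34772025-34772043 plus, chr8:84847075-84847093 plus, chr10:86705638-86705656 minus and chr12:17266491-17266509 plus). The Hsp90b1 window holds a further match, at chr10:86705533-86705551 plus.
Hspa5: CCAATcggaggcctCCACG
Calr: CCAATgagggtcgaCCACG
Hsp90b1: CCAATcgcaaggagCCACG
Pdia6: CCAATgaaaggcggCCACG
A match in the letters is a description of the window and not a measured binding site.

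P4ha1, P4ha2, Plod1 and Plod2 are known from other cells as genes induced by hypoxia, so a list of other hypoxia-inducible transcripts was set beside them. Of 15 tested 6 rose, 4 fell and 5 stayed uncalled, with a median log2 difference of 0.06, where 20.8% of all tested genes rose and 22.1% fell. The glycolytic enzyme genes Eno1, Ldha and Pgk1 fell, Eno1 to 28.4 ± 2.16 FPKM in icKO, against 55.4 ± 5.27 FPKM in control nerves (limma, Benjamini-Hochberg adjusted p = 0.00109). Mxi1, a transcriptional repressor, rose to 17.9 ± 7.57 FPKM in icKO, against 4.25 ± 0.58 FPKM in control nerves, and Adm, the gene of adrenomedullin, to 11.4 ± 1.77 FPKM, against 3.36 ± 0.57 FPKM (SD, n = 3 each). Slc2a1, a glucose transporter gene, was at 56.1 ± 3.68 FPKM in icKO and 51.4 ± 2.41 FPKM in control nerves and did not pass (adjusted p = 0.279), nor did Egln1, an oxygen-sensing prolyl hydroxylase gene (adjusted p = 0.540). Ndrg1, the most abundant gene of the list, fell to 355 ± 15.9 FPKM in icKO, against 451 ± 15.7 FPKM in control nerves, but did not pass without control replicate 3, without both muscle-rich libraries or with no filter on low values (adjusted p = 0.0616, 0.0580 and 0.0641). The hydroxylases thus stood beside a list that moved in both directions.

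**Figure D4:**
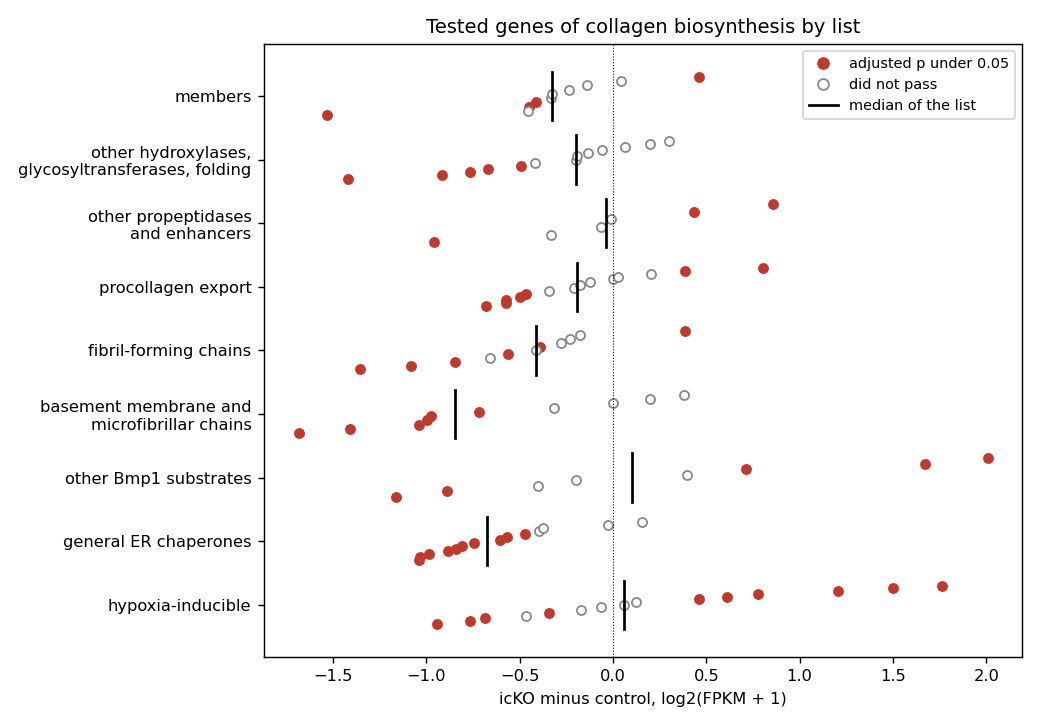
Log2(FPKM + 1) difference of icKO minus control for every tested gene (point) of the 10 members and of each list of collagen biosynthesis, filled where the adjusted p was under 0.05, with the median of each list as a bar. The general chaperones of the endoplasmic reticulum (ER) lie mostly below 0 with a median of -0.68, while the hypoxia-inducible list spreads to both sides around 0.06.

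The genes whose levels followed P4ha1 most closely were sought among 3972 genes that averaged 10 FPKM or more, by the root mean square difference of mean-centred log2(FPKM + 1) over the 6 libraries. The nearest was Sardh, a mitochondrial sarcosine dehydrogenase gene, at 5.34 FPKM in icKO and 17.9 FPKM in control nerves on average, with a distance of 0.05. Rcn1, which encodes a calcium-binding protein of the endoplasmic reticulum, followed at a distance of 0.09, with 24.2 FPKM in icKO and 73.7 FPKM in control nerves. Fntb, Cadm3 and Fam213a completed the first 5 at distances of 0.12 to 0.14. These distances describe likeness over 6 libraries that fall into 2 groups.

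Markers of other cell types differed between genotypes in part, where 20.8% of all tested genes were higher and 22.1% lower in icKO. All 10 tested adipocyte markers fell, with a summed level of 118 to 233 FPKM in icKO and 716 to 802 FPKM in control libraries. Lep among them was at 0.02 to 0.10 FPKM in icKO libraries. It passed the filter only through its control level, so its call carries little weight. Of 15 tested fibroblast markers 3 rose, 4 fell and 8 did not pass, and their sum was 1515 to 1598 FPKM in icKO and 1005 to 1765 FPKM in control libraries. The largest part of the icKO sum was Apod, which rose to 851 ± 29.5 FPKM in icKO, against 380 ± 81.8 FPKM in control nerves. Lum, among the falls, went to 28.8 ± 6.83 FPKM, against 205 ± 87.2 FPKM (SD, n = 3 each). The sum thus hides changes in both directions. Of 13 markers of tendon, cartilage and bone only Fmod and Cnmd were tested, and both fell. The sum of the list was 6.54 to 9.28 FPKM in icKO and 28.2 to 38.8 FPKM in control libraries. Cnmd was at 0.35 to 0.71 FPKM in icKO and 14.0 to 20.5 FPKM in control libraries. It also passed the filter only through its control level, so its call carries little weight. Below the filter, Comp was at 0.20 to 0.33 FPKM in icKO and 1.302 to 1.78 FPKM in control libraries, and Chad at 0.05 to 0.09 and 0.21 to 0.54 FPKM, while Acan was at no more than 0.10 FPKM in any library and Matn3 at 0.02 FPKM or less. Of 11 endothelial and mural cell markers 5 fell and 1 rose, of 10 Schwann cell markers 3 rose and 2 fell, and of 8 perineurial markers 1 rose and 2 fell. The fibroblast, Schwann cell and perineurial counts lie near the shares of all tested genes. Among the falls, Gfra3 of the Schwann cell list and Moxd1 of the perineurial list were under 1 FPKM in every icKO library. Both passed the filter only through their control level. Of 9 tested macrophage markers 0 passed, and 0 had an unadjusted p under 0.05 in limma, with a sum of 126 to 131 FPKM in icKO and 111 to 245 FPKM in control libraries. Of 18 tested skeletal muscle markers 1 fell, and of 9 motoneuron markers the 4 tested, all cytoskeletal genes, rose. The part of these cell types in the differences of the 10 members was not tested, beyond the fits with the muscle covariate and without the muscle-rich libraries.

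**Figure D5:**
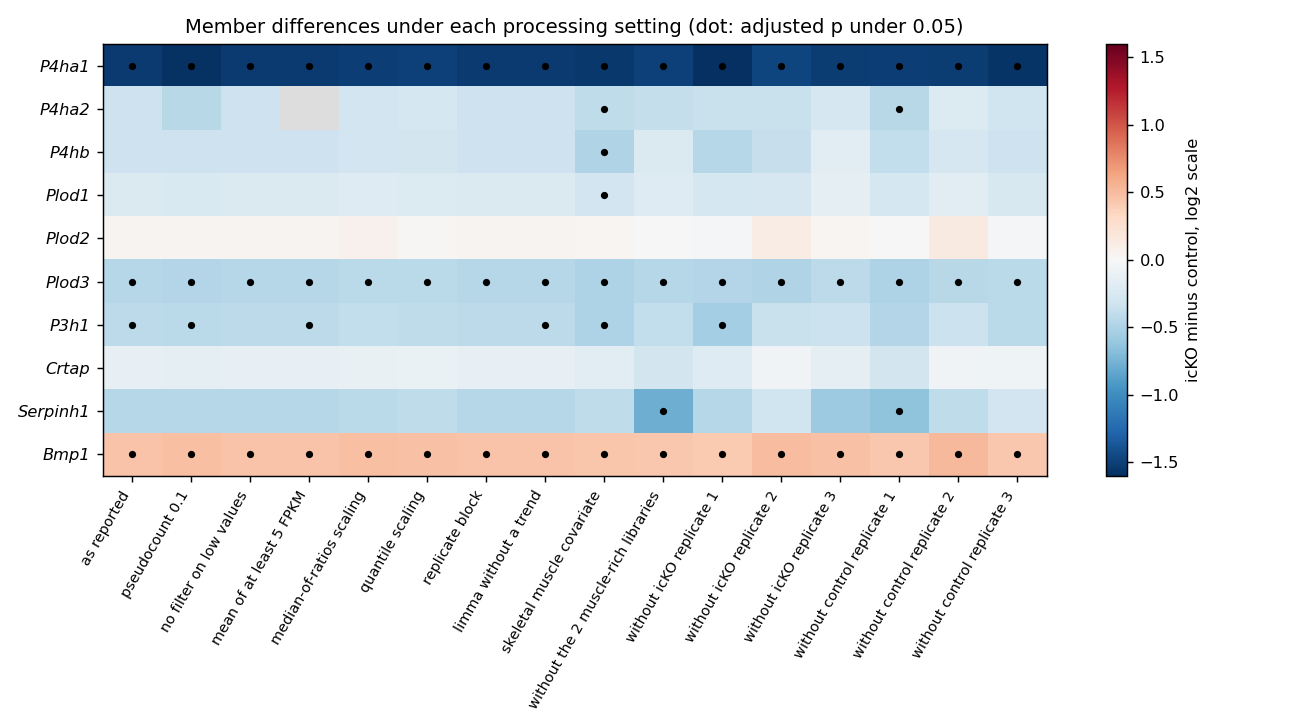
Log2 difference of icKO minus control (colour) for the 10 genes under the reported fit and 15 alternatives, with a dot where the adjusted p was under 0.05 and a grey cell where the gene was filtered out. P4ha1, Plod3 and Bmp1 carry a dot in every column, P3h1 in the reported fit and 5 alternatives, and Crtap and Plod2 in none.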

How the data were processed

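Polyadenylated RNA of sciatic nerve was sequenced in 3 icKO and 3 control libraries, grouped and numbered after the labels. The authors deposited 1 table of FPKM values per gene and library. The submitters' processing notes name GRCm39, STAR, FastQC 0.11.2, DESeq2 1.16.1 and StringTie 1.3.1c, with no role for any. How strand and multiply matching reads were treated is not given in the sources used here. Because FPKM is relative to the library's total, any highly abundant transcript affects the level of every other gene. Symbols were matched by gene ID through a GRCm38 annotation (55154 of 55335 IDs), so gene coordinates are not given and promoters are RefSeq windows of GRCm38.p6. In the gene lists 221 of 222 symbols matched a single ID.

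The test was limma (version 3.58.1, R version 4.3.3), two-sided, on log2(FPKM + 1), with a variance trend and no covariate, for genes averaging 1 FPKM or more, with Benjamini-Hochberg adjustment. The log2(FPKM + 1) scale understates changes of low genes such as P4ha2. Depth was read from the commonest step of FPKM times length in 34186 single-transcript genes, so it is an estimate. Whole reads were not recovered from StringTie values and no count model was used. The depth estimate was tried on simulated whole fragments at a known depth. Ratios were tested by exact permutation over libraries.

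The members and gene lists were chosen with earlier results of these data known. Named are all members and, per list, the 3 most abundant tested genes and the largest called change each way, plus the 5 genes nearest to the member with the largest difference. Other named genes were chosen after their values were seen. The alternatives were pseudocount 0.1, a filter at 5 FPKM or none, quantile or median-of-ratios scaling, a replicate block, no trend, a skeletal muscle covariate, leaving out icKO replicate 3 and control replicate 1 together, and leaving out each library. Cell type marker lists served to describe the libraries.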

Additional observations from a re-analysis of the deposited data

How the results depend on the processing

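The number of all tested genes called, 5516 as reported, was 3308 with a mean of at least 5 FPKM, where fewer genes were tested, and 3728 to 5476 when single libraries were left out. The member count higher in icKO was 1 under every alternative run. The member count lower, 3 as reported, was 6 with the skeletal muscle covariate, where P4ha2, P4hb and Plod1 joined, and 2 to 4 without single libraries. The count of partner genes higher, 14 as reported, was 8 with a mean of at least 5 FPKM, 9 without control replicate 3 and 9 to 13 over the fits without single libraries, and the count lower, 38, was 29 to 43 in those fits. The difference of Plod2 changed sign without the muscle-rich libraries (-0.0060) and was -0.023 to 0.15 without single libraries, below 0 without icKO replicate 1 or control replicate 3 (-0.022). The difference of Sparc changed sign with quantile scaling (0.035) and without the muscle-rich libraries (0.0043), and was -0.12 to 0.0044 without single libraries, above 0 without icKO replicate 3. The difference of Col4a1 changed sign with quantile scaling (-0.034) and was -0.047 to 0.048 without single libraries, below 0 without icKO replicate 3 (-0.029), control replicate 2 (-0.00084) or control replicate 3. These differences did not pass in any fit, and the cause was not tested.

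The difference of P3h1 did not pass with no filter, quantile or median-of-ratios scaling or the replicate block, without the muscle-rich libraries and in 5 of 6 fits without single libraries (limma, Benjamini-Hochberg adjusted p = 0.0512 to 0.139). In lists, falls of fibril-forming chains numbered 3 with a filter at 5 FPKM or none, and falls of export genes 3 with the replicate block. Rises of export genes, 2 as reported, were 1 to 3, rises of propeptidases and enhancers 0 to 2 and their falls 1 to 3 over the alternatives, and Col11a2 passed in 7 of the 14 in which it was tested.

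Replicate numbers gave no pairing, as deviations of same-numbered libraries correlated at -0.10, 0.04 and -0.05. With the replicate block 4596 genes passed, 2 members were lower and 1 was higher. The log2 ratios between paralogs kept their sign without single libraries, at -1.26 to -0.96 for P4ha1 to P4ha2, 0.20 to 0.41 for Plod2 to Plod1 and -0.28 to -0.19 for Plod3 to Plod1. P4ha2, with an estimated 83 to 162 fragments per library, is the member most limited by depth.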
